A study of Mus musculus with 2 samples.

Results

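Endothelial and endocardial genes were followed in RNA of cells sorted from E14.5 mouse hearts as cardiac neural crest. The set holds 34 genes chosen by name, of 19938 genes measured, and each was read from the single transcript cluster (the array's probe group for a gene) annotated to that symbol alone. All 34 had such a cluster. By role, 29 were taken as pan-endothelial, 2 as endocardial (Npr3 and Nfatc1) and 3 as lymphatic (Flt4, Lyve1 and Prox1).

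The groups were Adam19-/- embryos, set against Adam19+/+ embryos, with 1 array each (n = 1). Both groups were Wnt1-Cre; R26tdTomato/+ on a C57BL/6 background, which means a Cre driver active in the neural crest and a tdTomato reporter that Cre switches on, so no sample without Cre or reporter served as a control. Hearts were digested with collagenase and tdTomato-positive cells were taken by flow sorting. How many embryos gave each sample, and which part of Adam19 the null allele lacks, is not stated in the sources used here.

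Endothelial cells line blood vessels and lymphatics, and the endocardium is the endothelium of the heart chambers and valves. Vascular endothelial growth factor (VEGF), angiopoietin and adrenomedullin signals reach these cells through receptors in the set, and ETS and SoxF transcription factors keep their identity. In the mouse heart both linings come mainly from mesoderm, so most of these genes mark cells outside the sorted lineage. Some members, such as Eng, Npr3 and Calcrl, are also made by mesenchyme or smooth muscle, and others by blood cells.

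The RefSeq promoters of 3 members are shown because they belong to a receptor or surface gene that was higher (Calcrl, Kdr) or lower (Emcn) in the Adam19-/- sample. Each run is the 250 bases before the annotated start, 5′ to 3′ on the gene's strand, in build GRCm38.p6. Capitals mark the ETS motif CAGGAAG, also as its reverse complement CTTCCTG, and the SOX motif AACAAT.
Calcrl, chr2:84425267-84425516, minus strand: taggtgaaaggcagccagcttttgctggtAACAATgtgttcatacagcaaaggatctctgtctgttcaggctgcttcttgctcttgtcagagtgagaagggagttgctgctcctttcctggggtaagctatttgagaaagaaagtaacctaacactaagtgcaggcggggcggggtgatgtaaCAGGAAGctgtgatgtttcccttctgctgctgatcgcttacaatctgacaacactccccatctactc
Kdr, chr5:75978456-75978705, minus strand: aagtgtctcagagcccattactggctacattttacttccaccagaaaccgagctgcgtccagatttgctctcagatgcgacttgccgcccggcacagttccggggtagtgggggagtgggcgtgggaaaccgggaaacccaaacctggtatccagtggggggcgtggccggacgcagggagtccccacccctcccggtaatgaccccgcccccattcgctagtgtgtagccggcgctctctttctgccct
Emcn, chr3:137340828-137341077, plus strand: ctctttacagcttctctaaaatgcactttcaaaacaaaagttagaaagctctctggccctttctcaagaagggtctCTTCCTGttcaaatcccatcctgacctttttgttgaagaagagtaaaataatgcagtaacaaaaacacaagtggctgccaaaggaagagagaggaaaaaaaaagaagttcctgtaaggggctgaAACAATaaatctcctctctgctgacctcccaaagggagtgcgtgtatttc

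On both strands, CAGGAAG stood in promoters of 6 of the 16 members with a promoter in the table, namely Calcrl, Egfl7, Emcn, Erg, Rasip1 and Robo4, or 7 of their 22 promoters (31.8%). Of all 32851 promoters of that length, 10.8% held it. The ETS variant CCGGAAG was in none of the 22, against 6.91% of all. AACAAT was in 4 of the 22, those of Calcrl, Emcn, Erg and Tek, against 9.42% of all. The GATA motif AGATAA was in 2, those of Erg and Tal1, against 9.99%. Kdr holds none of the 4. The motifs do not overlap in the runs shown, and they were picked after counts of several motifs had been seen. Calcrl and Emcn hold the same pair of motifs and had differences of opposite sign, 0.19 and -0.09 on the log2 scale.

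The deposited values were read as log2 signals from their range, and a difference below is that of Adam19-/- minus Adam19+/+. A floor of 8.01, the median over all genes of the mean signal, serves as a middle level and is not a limit of detection. Over all clusters the median signal was 7.52 for Adam19-/- and 7.49 for Adam19+/+, and the arrays correlated across clusters with Pearson's r = 0.998. Adam19 had a signal of 9.77 in Adam19-/- cells against 11.62 in Adam19+/+ cells. The 3 measured Y-linked genes differed by between -1.62 and -1.17, and lay above the floor in Adam19+/+ cells alone. Xist was at 11.14 in Adam19-/- cells against 11.25 in Adam19+/+ cells, a difference of -0.11. With 1 array each, a different share of male embryos cannot be told apart from genotype. Its part in the differences below was not tested. Of the 10 markers of neural crest derivatives, 8 were measured and all 8 lay above the floor on both arrays, with Acta2, which encodes smooth muscle actin, at 13.62 in Adam19-/- cells against 13.74 in Adam19+/+ cells. With 1 array per genotype no test, p-value or standard error could be had, and each difference compares these 2 samples alone. As a guide to how far probes on the same arrays disagree, 583 genes had at least 2 clusters above the floor. The differences given by a gene's 2 brightest clusters lay a median of 0.05 apart, with a 95th percentile of 0.24. This gap takes in neither the spread between samples nor genes under the floor.

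Most endothelial genes (19 of 34) lay below the middle level of all genes on both arrays, and most were higher in the Adam19-/- sample by small amounts. In all, 13 members lay above the floor on both arrays, Cd93 on the Adam19-/- array alone, Emcn only in Adam19+/+ cells, and 19 under it on both. Those 19 include the defining endothelial markers Pecam1 and Cdh5. The difference was positive for 25 of the 34, negative for 6 and exactly 0 for 3, with a median of 0.13 and a range from -0.14 to 0.49. Over all 19938 genes the median was 0.01, with 51.7% higher and 34.1% lower. That share depended on level. Among the 15 members above the floor on at least 1 array, 11 were higher, against 65.2% of such genes. Their median was 0.18, against 0.04. Among the 19 under the floor on both arrays, 14 were higher, against 37.7% of such genes. The median of those 19 was 0.11, against 0.

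No member reached 1.5-fold in either direction, a step passed upward by 0.155% and downward by 0.0552% of all genes. At 1.2-fold, or 0.26 on the log2 scale, 7 of 34 members (20.6%) were higher, against 5.07% of all genes, and 0 were lower, against 2.02%. The 7 were Nfatc1, Cd93, Prox1, Plvap, Ramp2, Pecam1 and Cdh5. Cdh5 stood just inside the step at 0.263, and the nearest gene outside it was Flt4 at 0.249. Split by level, 4 of the 15 members above the floor on at least 1 array were 1.2-fold higher, where 4.06% of such genes were higher and 1.13% lower. Of the 19 members under the floor on both arrays 3 were, where 6.1% of such genes were higher and 2.94% lower. Centring differences on a lowess curve left 4 of the 7 (Plvap, Cd93, Nfatc1 and Prox1), and raising every linear signal by 32, a step that damps dim genes, also left 4 (Cd93, Ramp2, Nfatc1 and Prox1). The share of all genes past 1.2-fold was not counted under these settings. All shares given describe 1 pair of samples.

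**Figure D1:**
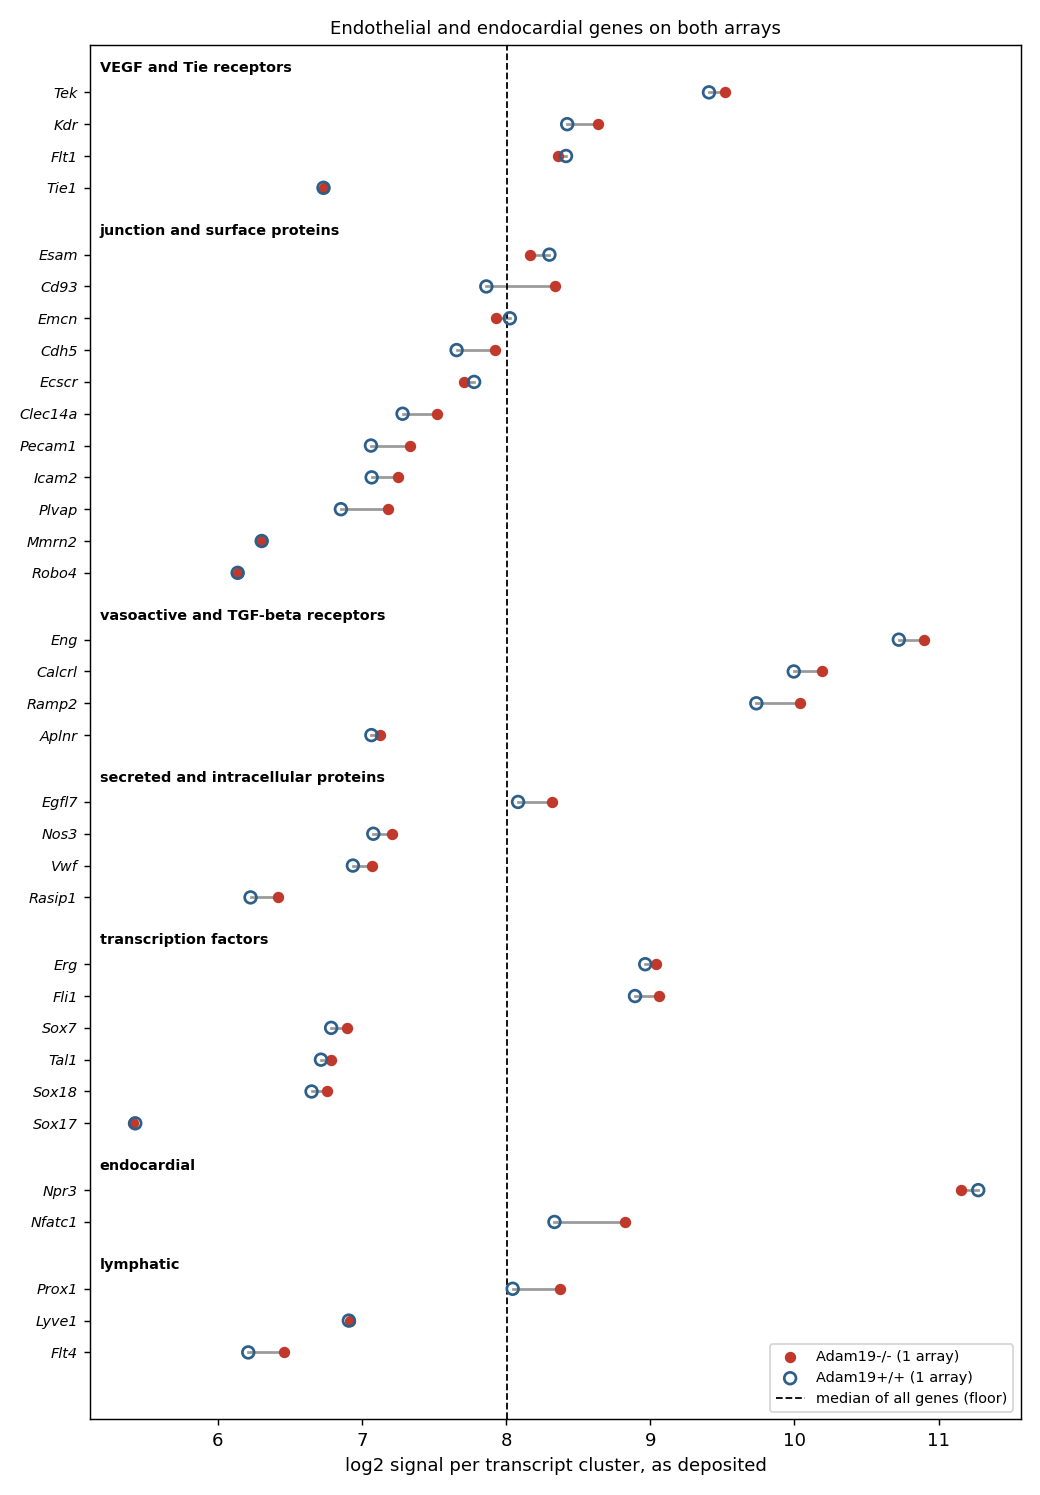
Log2 signal (x axis) of each of the 34 genes on the Adam19-/- array (filled red) and the Adam19+/+ array (open blue), grouped by role; the dashed line is the median of all genes at 8.01. Signals of different genes come from different probes and are not to be ranked; 19 genes lie left of the line on both arrays, and for most genes the red point lies to the right of the blue one.

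The receptors for VEGF and angiopoietin differed little. Kdr, which encodes the main signalling receptor for VEGF-A, had a signal of 8.64 in Adam19-/- cells against 8.42 in Adam19+/+ cells (log2 difference 0.22, 1.16-fold). Flt1, a receptor that binds VEGF-A and acts largely as a decoy, was at 8.36 in Adam19-/- cells against 8.42 in Adam19+/+ cells (log2 difference -0.05). Tek, the angiopoietin receptor Tie2, was at 9.52 in Adam19-/- cells against 9.41 in Adam19+/+ cells (log2 difference 0.11). Its relative Tie1 was at 6.73 on both arrays, with exactly equal values. Thus 2 of these 4 genes were higher, 1 was lower and 1 was equal, and none reached 1.2-fold.

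Their ligands did not move one way. Vegfa was at 10.07 in Adam19-/- cells against 10.04 in Adam19+/+ cells (log2 difference 0.02). Vegfb differed by 0.12, and Pgf, which encodes a ligand of Flt1, by -0.21. Angpt1, the activating Tie2 ligand, was higher, at 8.48 in Adam19-/- cells against 8.19 in Adam19+/+ cells (log2 difference 0.29). Angpt2 differed by 0.09, and the VEGF co-receptors Nrp1 and Nrp2 by -0.10 and -0.03. Rspo3, a secreted enhancer of Wnt signals, differed by -0.14. Across the list of 25 measured ligands, co-receptors and vessel partners, 11 were higher, 11 lower and 3 equal. Their median was 0.00. Of the 25, 2 were at least 1.2-fold higher, against 5.07% of all genes, and 0 were 1.2-fold lower, against 2.02%.

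Among the 11 junction and surface proteins, 6 were higher, 3 lower and 2 equal. Of the 11, 4 were at least 1.2-fold higher, against 5.07% of all genes, and 0 were 1.2-fold lower, against 2.02%. Only 3 of the 11 lay above the floor on at least 1 array, 1 higher and 2 lower, with a median of -0.09. Cd93, a surface glycoprotein that binds the matrix protein multimerin 2, was at 8.34 in Adam19-/- cells against 7.86 in Adam19+/+ cells (log2 difference 0.48, 1.39-fold). This was the 115th largest increase of all genes. Plvap, the diaphragm protein of endothelial fenestrae and caveolae, was at 7.18 in Adam19-/- cells against 6.85 in Adam19+/+ cells (log2 difference 0.33, 1.25-fold). Pecam1, an adhesion molecule at endothelial junctions, was at 7.34 in Adam19-/- cells against 7.06 in Adam19+/+ cells (log2 difference 0.27). Cdh5, the cadherin of endothelial adherens junctions, was at 7.92 in Adam19-/- cells against 7.66 in Adam19+/+ cells (log2 difference 0.26). Plvap, Pecam1 and Cdh5 lay under the floor on both arrays.

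Of the remaining surface genes, Clec14a, a lectin of the same family as Cd93, was at 7.52 in Adam19-/- cells against 7.28 in Adam19+/+ cells, and Icam2, an adhesion ligand for leukocytes, at 7.25 in Adam19-/- cells against 7.07 in Adam19+/+ cells. These are differences of 0.24 and 0.18. The junctional adhesion molecule gene Esam was lower, at 8.16 in Adam19-/- cells against 8.30 in Adam19+/+ cells (log2 difference -0.14), the largest decrease of the 34. The sialomucin gene Emcn was at 7.93 in Adam19-/- cells against 8.03 in Adam19+/+ cells, and Ecscr, a regulator of endothelial migration, at 7.71 in Adam19-/- cells against 7.78 in Adam19+/+ cells. Mmrn2, the multimerin bound by Cd93 and Clec14a, was at 6.31 and the guidance receptor Robo4 at 6.14, each with exactly equal values on both arrays. Equal values were common among dim genes: 27.7% of genes under the floor on both arrays had them, against 1.07% of genes above it. Why 2 arrays share exact values was not tested.

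All 4 receptors of vasoactive peptides and of transforming growth factor beta (TGF-beta) family ligands were higher, and 3 of them lay above the floor on both arrays. Ramp2 and Calcrl encode the chains of the adrenomedullin receptor, the first modifying the specificity of the second. Ramp2 was at 10.04 in Adam19-/- cells against 9.74 in Adam19+/+ cells (log2 difference 0.30, 1.23-fold). Calcrl was at 10.19 in Adam19-/- cells against 9.996 in Adam19+/+ cells (log2 difference 0.19, 1.14-fold). The ligand gene Adm, under the floor on both arrays, was at 7.75 in Adam19-/- cells against 7.54 in Adam19+/+ cells (log2 difference 0.21). Eng, which encodes the co-receptor endoglin, was at 10.90 in Adam19-/- cells against 10.72 in Adam19+/+ cells (log2 difference 0.18), whereas the receptor it assists, Acvrl1, differed by -0.09. Aplnr, the apelin receptor, was at 7.12 in Adam19-/- cells against 7.07 in Adam19+/+ cells, and its ligand gene Apln was at 7.61 on both.

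Secreted and intracellular endothelial proteins were likewise higher for 4 of 4 genes, none by 1.2-fold. Egfl7, a secreted protein that guides vessel tube formation, was at 8.32 in Adam19-/- cells against 8.08 in Adam19+/+ cells (log2 difference 0.23). Rasip1, which controls the cytoskeleton during lumen formation, was at 6.42 in Adam19-/- cells against 6.23 in Adam19+/+ cells. Nos3, the endothelial nitric oxide synthase, was at 7.21 in Adam19-/- cells against 7.08 in Adam19+/+ cells. The clotting factor gene Vwf was at 7.07 in Adam19-/- cells against 6.94 in Adam19+/+ cells. The last 3 lay under the floor, with differences of 0.19, 0.13 and 0.13.

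Transcription factors differed by at most 0.17. The ETS factor Erg was at 9.04 in Adam19-/- cells against 8.97 in Adam19+/+ cells (log2 difference 0.07), and its close relative Fli1 at 9.06 in Adam19-/- cells against 8.89 in Adam19+/+ cells (log2 difference 0.17). Both lay above the floor, in contrast to the SoxF factors. Sox7 was at 6.90 in Adam19-/- cells against 6.79 in Adam19+/+ cells, Sox18 at 6.75 in Adam19-/- cells against 6.65 in Adam19+/+ cells, and Sox17 at 5.41 in Adam19-/- cells against 5.43 in Adam19+/+ cells. Tal1, a factor of blood and endothelial progenitors, was at 6.79 in Adam19-/- cells against 6.72 in Adam19+/+ cells. Of the 6 genes, 5 were higher and Sox17 was lower by 0.02 (0.01 higher with quantile normalisation), with a group median of 0.09 and no gene past 1.2-fold.

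**Figure D2:**
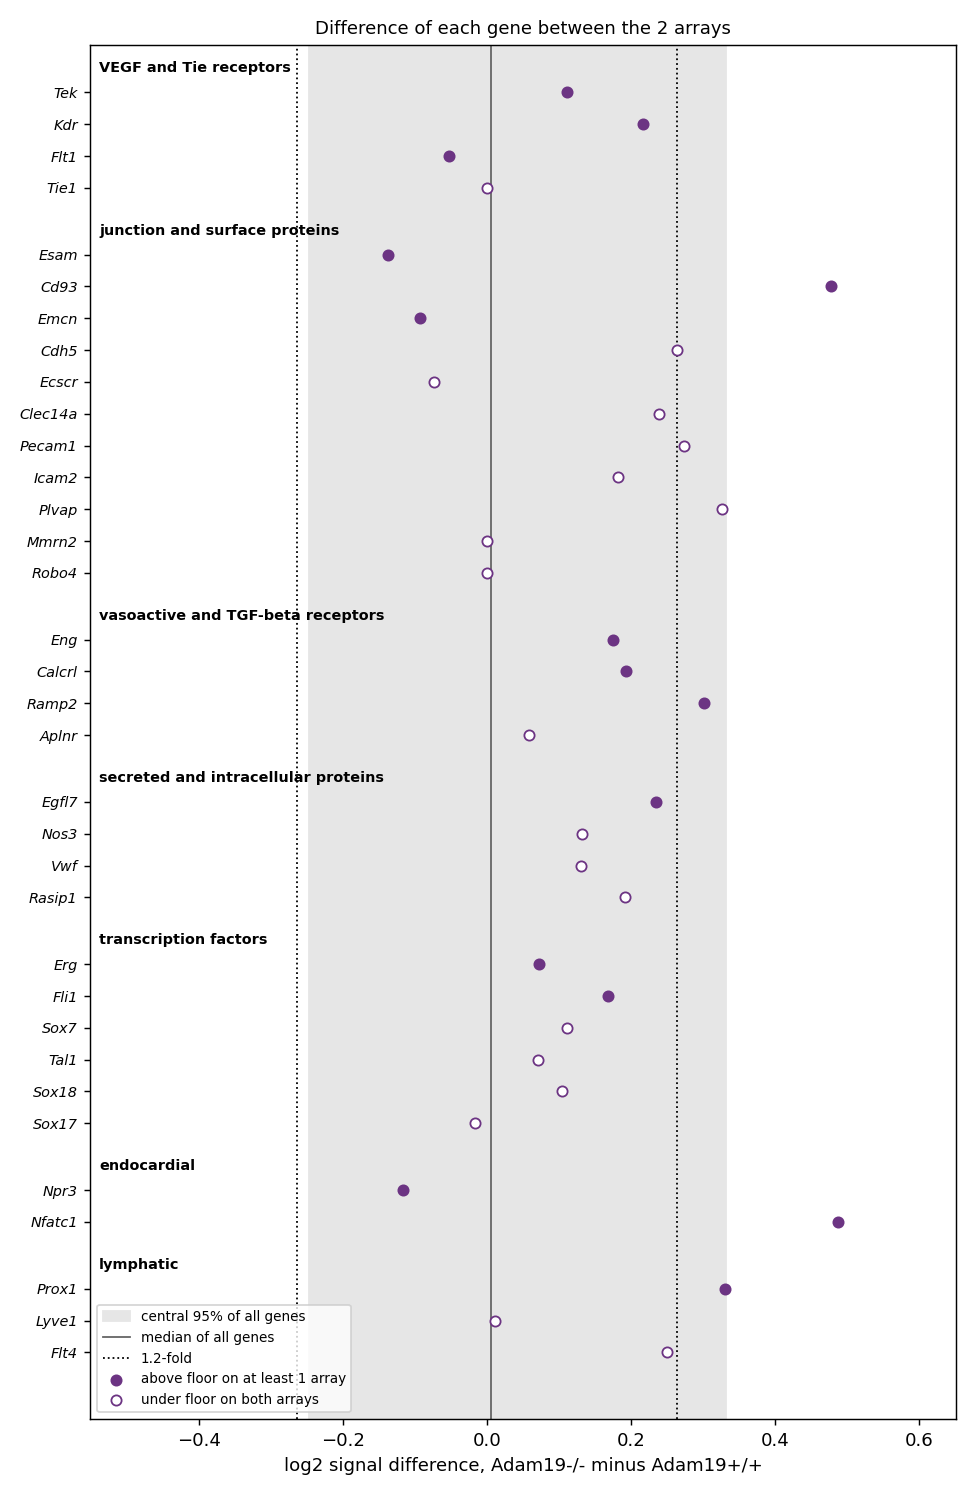
Difference in log2 signal, Adam19-/- minus Adam19+/+ (x axis), for each of the 34 genes by role; filled points lay above the floor on at least 1 array and open points on neither. The grey band is the central 95% of all genes, from -0.25 to 0.33, the solid line their median and the dotted lines 1.2-fold; Nfatc1 at 0.49 and Cd93 at 0.48 lie to the right of the band.

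The 2 endocardial genes went opposite ways. Nfatc1, a transcription factor needed in the endocardium for valve formation, was at 8.82 in Adam19-/- cells against 8.34 in Adam19+/+ cells (log2 difference 0.49, 1.40-fold), the largest of the 34 and the 100th largest increase of all 19938 genes. Npr3, the clearance receptor for natriuretic peptides, was at 11.16 in Adam19-/- cells against 11.28 in Adam19+/+ cells (log2 difference -0.12). Both genes lay above the floor on both arrays. Their median of 0.19 therefore describes neither gene.

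Of the lymphatic genes, Prox1 was past 1.2-fold. This transcription factor sets lymphatic identity and is also made by heart muscle and neural cells. It was at 8.38 in Adam19-/- cells against 8.05 in Adam19+/+ cells (log2 difference 0.33, 1.26-fold). Flt4, the receptor for VEGF-C, was at 6.46 in Adam19-/- cells against 6.21 in Adam19+/+ cells (log2 difference 0.25). Its ligand gene Vegfc was at 8.18 in Adam19-/- cells against 7.73, under the floor, in Adam19+/+ cells (log2 difference 0.45). The related gene Vegfd, above the floor on both arrays, was at 9.19 in Adam19-/- cells against 9.12 in Adam19+/+ cells (log2 difference 0.08). The hyaluronan receptor gene Lyve1, also known in macrophages, was at 6.92 in Adam19-/- cells against 6.91 in Adam19+/+ cells (log2 difference 0.01). Flt4 and Lyve1 lay under the floor on both arrays.

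**Figure D3:**
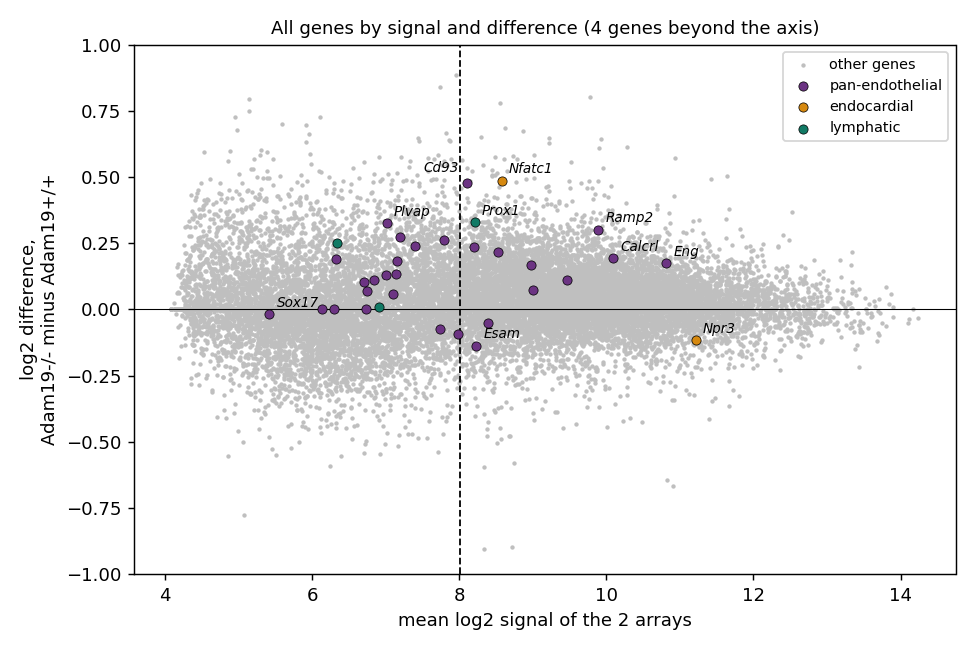
Mean log2 signal of the arrays (x axis) against the difference, Adam19-/- minus Adam19+/+ (y axis), for all 19938 genes in grey and the 34 genes in colour by class; the dashed line is the floor and 4 genes lie beyond the y axis. The 34 genes lie within the cloud of all genes, between -0.14 and 0.49.

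Endothelial genes outside the 34 gave a mixed picture. Of 40 further endothelial, venous and lymphatic genes, 21 were higher, 15 lower and 4 equal. Their median was 0.01, equal to that of all genes at this rounding. Yet 8 of the 40 were at least 1.2-fold higher, against 5.07% of all genes. Only 1 was 1.2-fold lower, against 2.02%, namely Ushbp1 at -0.26, under the floor on both arrays. Ptprb, the endothelial receptor phosphatase that acts on Tie2 and Cdh5, was at 8.92 in Adam19-/- cells against 8.39 in Adam19+/+ cells (log2 difference 0.52). The haematopoietic and endothelial factor gene Gata2, also made by sympathetic neurons, differed by 0.46, Palmd by 0.31 and the sphingosine phosphate receptor gene S1pr1 by 0.26. Of the 14 genes of this list above the floor, 8 were higher and 6 lower, the lower ones including Reln at -0.22 and Cgnl1 at -0.21. Cldn5, the claudin of endothelial tight junctions, was at 6.87 on both arrays. Some of the 40 are known in mesenchyme too, such as Cd34, at 12.31 in Adam19-/- cells against 12.35 in Adam19+/+ cells, and Rhoj, at 12.56 in Adam19-/- cells against 12.58 in Adam19+/+ cells.

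Markers of other cell types differed between the same arrays, and their part in the endothelial differences was not tested. In RNA from a sorted pool, fewer cells of a type and less RNA per cell cannot be told apart. All 16 leukocyte markers were higher in Adam19-/- cells, with a median of 0.31. Of the 16, 9 were at least 1.2-fold higher, against 5.07% of all genes. The summed linear signal of the leukocyte markers was 3425 in Adam19-/- cells against 2621 in Adam19+/+ cells, 1.31 times as high. That of the 34 endothelial genes was 13343 in Adam19-/- cells against 12290 in Adam19+/+ cells, 1.09 times, and that of all genes was 1.02 times as high. Of the 16, 12 lay under the floor on both arrays, with signals in Adam19-/- cells between 5.65 for Aif1 and 9.21 for Laptm5. Of the 34 genes, 8 were listed as also known in leukocytes or platelets (Pecam1, Icam2, Cd93, Eng, Fli1, Tal1, Lyve1 and Vwf). The list was drawn up with earlier results known and need not hold every such member. All 8 were higher, with a median of 0.17. Without them 26 genes remained, 17 higher, 6 lower and 3 equal. Their median was 0.11, and 5 of the 26 were at least 1.2-fold higher, against 5.07% of all genes.

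Among 14 cardiomyocyte markers 12 were higher and 2 lower. The median was 0.19, with a summed linear signal of 12013 in Adam19-/- cells against 10889 in Adam19+/+ cells. Of 7 measured erythroid markers 6 were higher and 1 lower. Their median was 0.29, with a sum of 3215 in Adam19-/- cells against 2669 in Adam19+/+ cells. The 6 measured platelet markers split evenly, 3 higher and 3 lower, around a median of -0.01 and a mean of 0.03. Their sums were 771 in Adam19-/- cells against 756 in Adam19+/+ cells, and all 6 lay under the floor on both arrays. Epicardial markers were higher for 5, lower for 2 and equal for 2 of 9, with a median of 0.16 and sums of 3245 in Adam19-/- cells against 2905 in Adam19+/+ cells. The members with the largest differences, among those with a mean signal above the floor, were Myl7 at 0.78 for cardiomyocytes, Hba-x at 0.36 for erythroid cells and Tcf21 at 0.57 for epicardium. At least 1.2-fold higher were 6 of the 14 cardiomyocyte, 4 of the 7 erythroid, 1 of the 6 platelet and 1 of the 9 epicardial markers. None of them was 1.2-fold lower. Of all genes, 5.07% were 1.2-fold higher and 2.02% lower.

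Pericyte genes, taken here as markers of the mural cells wrapped around small vessels, ran the other way. All 8 were lower in Adam19-/- cells, against 33.7% of genes above the floor. The differences were small, from -0.17 for Abcc9 to -0.03 for Rgs5 and Pdgfrb, with a median of -0.09. None was past 1.2-fold, where 4.06% of genes above the floor were higher and 1.13% lower. All 8 lay above the floor on both arrays, and their summed linear signal was 25032 in Adam19-/- cells against 26356 in Adam19+/+ cells. Markers of neural crest derivatives had a median of -0.07 and a mean of 0.01 over 8 genes, 3 higher and 5 lower. Their largest difference was that of Th, the tyrosine hydroxylase gene of sympathetic neurons. Th was at 10.03 in Adam19-/- cells against 9.58 in Adam19+/+ cells (log2 difference 0.46, 1.37-fold). It was the 1 gene of the 8 past 1.2-fold, against the same shares of genes above the floor. Next came the smooth muscle gene Tagln at -0.15, with Acta2 at -0.12, both within the range of the pericyte genes. The neural crest list had sums of 43091 in Adam19-/- cells against 44964 in Adam19+/+ cells. Whether the pericyte list tells pericytes from smooth muscle cells was not tested.

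**Figure D4:**
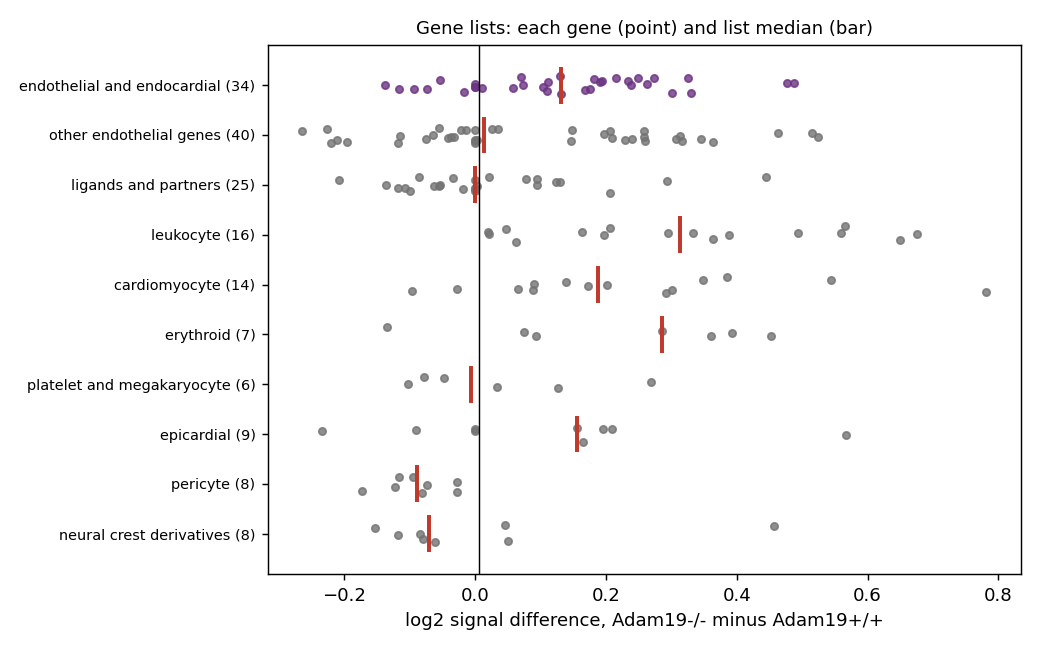
Difference in log2 signal, Adam19-/- minus Adam19+/+ (x axis), of each gene (points) in the endothelial set and 9 other lists, with the number measured in brackets; red bars are list medians and the black line the median of all genes. Leukocyte genes all lie right of 0 with a median of 0.31, pericyte genes all left of 0 with a median of -0.09, and the endothelial set has a median of 0.13.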

How the data were processed

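The authors deposited log2 signals, one value per transcript cluster, 1 column per array (Affymetrix Mouse Gene 1.0 ST), 28853 clusters in all. The log base, background correction, normalisation and probe summary are not stated in the sources used here. Signals run from 4.09 to 14.52 and were read as log2 for that range. They were not normalised again.

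Clusters were named from the platform annotation of 2016, with symbols updated by Entrez identifier from RefSeq (GRCm38.p6). Of the clusters, 21789 had 1 symbol (21698 matched the gene table), 1621 had several and 5443 were unnamed here. The brightest cluster stood for a gene, giving 19938 genes. The sequences shown are from the RefSeq promoter table of build GRCm38.p6, in which 16 of the 34 genes were found.

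The difference is Adam19-/- minus Adam19+/+ log2 signal. A gene was counted past 1.2-fold or 1.5-fold. With 1 array per genotype there was no test, and the number of arrays limits precision. The members, gene lists and thresholds were chosen with earlier results of these data known. All members were named, with up to 4 genes of each other list by absolute difference among those with a mean signal above the floor, and Adam19, the Y-linked genes and Xist. Ligands and markers named besides these were chosen after their values were seen. Alternatives were quantile normalisation, centring on a lowess curve, averaging clusters, adding 32 to the linear signal, and floors at the median and at the 75th percentile. In a check on shuffled differences, the median over members returned a known shift that had been added, which holds by arithmetic. The other steps were not tested on simulated data. Tools were Python 3.11.15, matplotlib 3.10.9, statsmodels 0.14.6, pandas 2.3.3 and numpy 2.4.6.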

Additional observations from a re-analysis of the deposited data

How the results depend on the processing

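No paired analysis was possible because each genotype has 1 array, and for the same reason no array could be left out. The median of the 34 genes, or of those a setting kept, stayed between 0.11 and 0.18 under all 7 alternatives. Averaging clusters could change nothing, since each member had a single cluster. The floors and the omission of genes left the differences as they were and took the median over fewer genes. The number at least 1.2-fold higher, 7 as deposited, was 4 after lowess centring, 4 with 32 added to the linear signal, 4 among genes above the median floor and 1 among the 4 genes above the 75th percentile floor. Nfatc1, Cd93 and Prox1 were past 1.2-fold under every alternative that kept them, whereas Pecam1, Cdh5 and Ramp2 were not after lowess centring, nor Pecam1, Cdh5 and Plvap with 32 added. With quantile normalisation the count was 6, with Flt4 in and Cdh5 and Ramp2 out. The share of all genes past 1.2-fold was not counted after quantile normalisation, lowess centring or adding 32. The counts of members under these settings therefore cannot be set against the 5.07% of the deposited values. The count of genes 1.2-fold lower was 0 throughout. The pan-endothelial median was 0.19 above the 75th percentile floor. At that floor the endocardial median was -0.12, since Npr3 alone was left, and no lymphatic gene was left. The lymphatic median was 0.18 with 32 added and 0.33 above the median floor, where Prox1 alone was left. Of single genes, Sox17 alone changed sign, to 0.01 with quantile normalisation. Medians were taken as moved beyond 0.05 and single genes beyond 0.24, the median and 95th percentile gap between clusters of a gene. Leaving out the 8 genes listed as also known in blood cells was added after seeing the data.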

Other observations

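Genes that tell arteries from veins were measured among the vessel partners and further endothelial genes. The arterial gap junction gene Gja5 was at 7.15 in Adam19-/- cells against 7.02 in Adam19+/+ cells, while Gja4 was at 7.46 in Adam19-/- cells against 7.56 in Adam19+/+ cells. The arterial Notch ligand gene Dll4 was at 7.39 in Adam19-/- cells against 7.45 in Adam19+/+ cells, and the arterial ephrin gene Efnb2 at 10.90 in Adam19-/- cells against 10.95 in Adam19+/+ cells. Of the venous genes, Ephb4 was at 10.40 in Adam19-/- cells against 10.31 in Adam19+/+ cells, and Nr2f2 at 9.99 in Adam19-/- cells against 10.02 in Adam19+/+ cells. None of these 6 differences reached 1.2-fold, and neither the arterial nor the venous genes moved one way. Notch4 was at 7.59 in Adam19-/- cells against 7.58 in Adam19+/+ cells.

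The scavenger receptor gene Stab1, known in macrophages and sinusoidal endothelium, was at 7.45 in Adam19-/- cells against 7.09 in Adam19+/+ cells (log2 difference 0.36), and its relative Stab2 differed by -0.06. The adaptor gene She, at 7.41 in Adam19-/- cells against 6.90 in Adam19+/+ cells, differed by 0.51. These genes were chosen after their values were seen.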
